A study of Mus musculus with 4 samples.

Results

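Plppr4, a phospholipid phosphatase-related membrane protein, was followed together with genes that make, sense or break down lysophospholipids in embryonic mouse microglia, the resident macrophages of the brain. The genes were picked by symbol from a list of 10 (Plppr4, Plpp1, Plpp2, Plpp3, Lpar1, Lpar5, Lpar6, S1pr1, S1pr2 and Sphk1), and 9 of these are described, of 16655 genes listed in both deposited tables. Sphk1 was not analysed here. The list was drawn up with the knockout-over-control values of these same libraries known, so those values are given for the 9 genes as a description, with no test.

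RNA was sequenced from fluorescence-sorted microglia of C57BL/6 embryos at embryonic day 14, from tissue that the labels call telencephalon in one place and cortex in another. The Arid1a cKO group (genotype Arid1acKO) carried a conditional knockout of Arid1a, the DNA-binding subunit of a BAF chromatin remodelling complex. The control group carried floxed Arid1a (Arid1afl/fl). The labels name no Cre driver for either group and do not say how many embryos went into a sample, so the spread between samples may be technical. Values came from 1 knockout library, Arid1a cKO replicate 2 (called cKO 2), and 2 control libraries (control 5 and control 6). The labels also list Arid1a cKO replicate 1, which was not analysed here.

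Lysophosphatidic acid (LPA) and sphingosine 1-phosphate (S1P) are small signalling lipids that act outside the cell through families of G protein-coupled receptors. Autotaxin makes most extracellular LPA and sphingosine kinases make S1P. The lipid phosphate phosphatases encoded by Plpp1, Plpp2 and Plpp3 remove the phosphate from either lipid at the cell surface. The Plppr proteins resemble these phosphatases in sequence but lack catalytic residues. Plppr4, also called plasticity-related gene 1, is best known from glutamatergic neurons, where it restrains LPA signalling at synapses. Microglia are known to express S1pr1, Lpar5 and Lpar6, and LPA can change their shape and motility in culture.

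The promoters of Plppr4, Lpar6 and S1pr2 are shown because these were the members that stood higher in cKO 2 than in either control with at least 60 reads in every library. Each sequence covers the 250 bases before the RefSeq transcription start on build GRCm38.p6, read 5′ to 3′ on the strand of the gene, from chr3:117360877-117361126 (minus strand) for Plppr4, chr14:73237641-73237890 (plus strand) for Lpar6 and chr9:20976794-20977043 (minus strand) for S1pr2. Capitals mark the only motif matches that were found.
Plppr4: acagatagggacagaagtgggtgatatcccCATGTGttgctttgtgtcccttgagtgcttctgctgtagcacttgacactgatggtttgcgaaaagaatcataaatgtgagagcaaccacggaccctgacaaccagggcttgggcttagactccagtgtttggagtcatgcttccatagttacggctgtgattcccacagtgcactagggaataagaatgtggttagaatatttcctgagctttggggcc
Lpar6: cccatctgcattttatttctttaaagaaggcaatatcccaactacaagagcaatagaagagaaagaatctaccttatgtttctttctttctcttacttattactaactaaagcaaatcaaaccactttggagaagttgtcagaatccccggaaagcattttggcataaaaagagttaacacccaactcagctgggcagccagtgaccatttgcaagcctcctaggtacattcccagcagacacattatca
S1pr2: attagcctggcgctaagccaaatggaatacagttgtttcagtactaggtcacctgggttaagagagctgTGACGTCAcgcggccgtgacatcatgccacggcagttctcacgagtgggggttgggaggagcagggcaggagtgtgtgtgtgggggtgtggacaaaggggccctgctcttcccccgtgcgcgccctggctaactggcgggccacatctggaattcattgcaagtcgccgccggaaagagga

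In all, 8 motifs were searched on both strands of these windows. None of the 3 windows held the AP-1 element TGANTCA (present in 6.87% of 27025 RefSeq promoter windows of the same length), the E-box CACGTG (6.05%), the PU.1 core GAGGAA (23.1%), the TATA box TATAAA (12.97%), the CCAAT box CCAAT (34.5%) or the GC box GGGCGG (32.9%). A variant E-box, CATGTG, began 220 bases before the Plppr4 start (in 12.2% of windows). The cAMP response element TGACGTCA began 181 bases before the S1pr2 start (in 1.62% of windows). The last pair of motifs was added after the sequences had been read, and no match overlapped another. The windows also differed in base composition. The Plppr4 window held 3 CpG dinucleotides and the Lpar6 window 1, both under the median of 6 over all windows, whereas the S1pr2 window held 14. GC content was 48% for Plppr4, 39.2% for Lpar6 and 59.2% for S1pr2, against a median of 52%. These matches and counts describe the letters only and say nothing of which factors bind.

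Depth was 17262261 counted reads in cKO 2, 18608979 in control 5 and 13774075 in control 6, so that after scaling by library size with trimmed-mean (TMM) factors 1 read was worth 0.0547 CPM in cKO 2, 0.0559 in control 5 and 0.0741 in control 6. Arid1a itself had 1258 reads in cKO 2, 1952 in control 5 and 1760 in control 6. That is 68.9 CPM in cKO 2, 109.0 in control 5 and 130.4 in control 6, a log2 fold change of -0.80 (SE 0.41). It was lowest in the library labelled as knockout, as were 31.1% of all tested genes, and much of its transcript was still read there. All 12 microglia markers checked were read in each library. Of these, 10 were lower in cKO 2 than in either control, as were 31.1% of all tested genes. The 12 markers summed to 14367 CPM in cKO 2, 19748 in control 5 and 27720 in control 6. Among 15236 genes tested, 162 had 0 reads in cKO 2, 1750 in control 5 and 508 in control 6. Only genes listed beside both controls were kept, and no gene left out had more than 4 reads in cKO 2. The number at 0 in cKO 2 was thus lowered by this choice and cannot be compared with those of the controls. In bulk RNA, fewer cells of a type and less RNA per cell cannot be told apart.

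Plppr4 was abundant in cKO 2 and scarce in both controls. The gene (ENSMUSG00000044667, chromosome 3, 117319139 to 117360876, minus strand, GRCm38) had 3942 reads in cKO 2, 154 in control 5 and 60 in control 6. These counts gave 215.8 CPM in cKO 2 (95% exact Poisson interval 209.1 to 222.6), 8.60 in control 5 (7.30 to 10.1) and 4.45 in control 6 (3.39 to 5.72). The groups did not overlap, and the intervals, which cover counting error only, lay far apart. The ratio was 25.1 over control 5 (exact interval 21.4 to 29.7) and 48.5 over control 6 (37.6 to 63.7), and the fitted log2 fold change was 5.04 (SE 0.50). Library cKO 2 had no replicate, so the spread behind this error comes from the controls alone, and the fit shares it in part over all genes. The controls themselves differed, with control 6 at 0.517 times control 5 (0.377 to 0.701). The only transcript on the opposite strand, Gm22408, shares 0.910% of the Plppr4 exon bases.

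**Figure D1:**
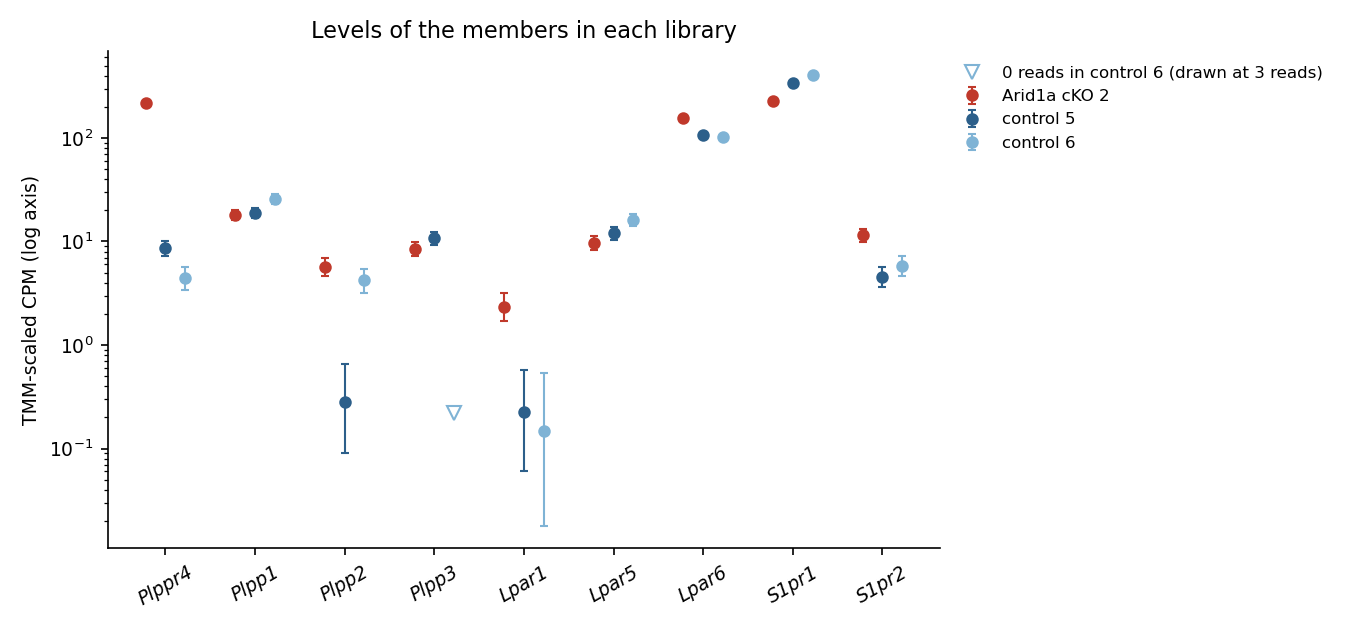
TMM-scaled CPM (log axis) of the 9 members in cKO 2 (red), control 5 (dark blue) and control 6 (light blue), with 95% exact Poisson intervals as bars; the open triangle is drawn at 3 reads for a library with 0 reads. Plppr4 sits at 215.8 CPM in cKO 2, 8.60 in control 5 and 4.45 in control 6, whereas Plpp3 and Plpp2 are far apart in the controls themselves.

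Measured per kilobase of exon, Plppr4 stood at 30.2 CPM per kilobase in cKO 2, 1.20 in control 5 and 0.622 in control 6. Of the 15207 tested genes with a known exon length, it ranked at place 1685 in cKO 2, 9992 in control 5 and 11817 in control 6. Among the 9711 tested genes with a mean of 5 CPM or more over the 3 libraries, cKO 2 included, its fold change had rank 6. Among all 15236 tested genes, many of them with few reads, it had rank 368. Plppr4 was picked with this fold change known, so the ranks are a description only. Together the 9 genes gave a summed level of which Plppr4 made up 33.1% in cKO 2, 1.70% in control 5 and 0.783% in control 6.

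Plppr4 is a neuronal gene in the later brain, so transcripts of other cells were read beside it. Of 14 neuronal markers, 13 were listed and none was at 0 in any library. In cKO 2, 3 were above both controls, 7 below both and 3 between, beside 38.0%, 31.1% and 30.9% of all tested genes. The summed level of these markers was 163.6 CPM in cKO 2, 223.8 in control 5 and 236.4 in control 6. The neuronal sum was thus lower, not higher, in the library with most Plppr4. Of 8 neural progenitor markers, 7 were listed, with Sox1 at 0 in control 5. In cKO 2, 3 were above both controls, 2 below both and 2 between, beside the same shares of all tested genes. The sum of these 7 markers was 209.0 CPM in cKO 2, 145.6 in control 5 and 152.4 in control 6. Vim, an intermediate filament gene that many other cell types also express, made up 101.9 CPM of the sum in cKO 2, 36.5 in control 5 and 18.4 in control 6. The part of progenitor transcripts in the Plppr4 level was not tested.

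None of the chromosomal neighbours of Plppr4 passed the test. By the coordinates in the tables, 3 genes listed in both lay within 500 kb. Frrs1, 411.0 kb away, had 2402 reads in cKO 2, 3813 in control 5 and 2620 in control 6. Snx7, 420.8 kb away on the other side, had 955 in cKO 2, 817 in control 5 and 565 in control 6. Palmd, 350.2 kb away, had 25 in cKO 2, 1 in control 5 and 2 in control 6. Frrs1 was lower in cKO 2 than in either control (log2 fold change -0.63, SE 0.37) and Snx7 slightly higher (0.26, SE 0.44), and neither passed edgeR's quasi-likelihood test over all genes (adjusted p = 0.955 and 1.00). Palmd, which encodes a paralemmin-related protein, stood at 24.5 times control 5 (exact interval 4.01 to 1006) and 9.23 times control 6 (2.30 to 80.4), values that rest on 1 and 2 control reads, and it did not pass the test (adjusted p = 1.00). Plppr5, the paralog, was listed in 1 table only, with 0 reads in cKO 2 and 25 in control 6. S1pr1 lies on the same chromosome as Plppr4, 1.60 Mb away, and had the opposite direction.

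By its pair of log2 ratios, over control 5 and over control 6, Plppr4 resembled 5 genes most, chosen as the nearest by Euclidean distance across the 3 libraries. Its own ratios on this scale were 4.63 and 5.56. Atp6v0d2, which encodes part of the vacuolar proton pump, was the nearest at a distance of 0.914, with ratios of 4.13 and 4.80. Gdf3, which encodes a TGF-beta family ligand, followed at 1.23, then Pltp, the phospholipid transfer protein, at 1.53. Ostn at 1.65 and Hyal6, a hyaluronidase family gene, at 1.73 completed the set. They lie on 4 chromosomes other than that of Plppr4, namely 4, 6, 2 and 16, and each had at least 293 reads in cKO 2 and at most 291 in a control. Both ratios share cKO 2, and the floor of 5 CPM was a mean that includes it. High counts in cKO 2 beside low control counts therefore follow from how the 5 genes were chosen.

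The rest of the Plppr family was read at low levels. Plppr3 had 92 reads in cKO 2, 16 in control 5 and 59 in control 6. Plppr2 had 21 in cKO 2, 0 in control 5 and 11 in control 6, and Plppr1 had 10 in cKO 2, 0 in control 5 and 38 in control 6. None of these 3 relatives passed the test. No relative came near 215.8 CPM, the level of Plppr4 in cKO 2: Plppr3, the most abundant of them, stood at 5.04 CPM there and at 2.63 ± 2.46 CPM in controls (SD, n = 2).

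Plpp1, Plpp2 and Plpp3, which encode the active lipid phosphate phosphatases, gave no common direction. Plpp1 (ENSMUSG00000021759, chromosome 13, 112800894 to 112867881, plus strand) had 329 reads in cKO 2, 336 in control 5 and 348 in control 6, which is 18.0 CPM in cKO 2, 18.8 in control 5 and 25.8 in control 6. Library cKO 2 was the lowest, within the counting interval of control 5 (16.8 to 20.9 CPM) but not of control 6 (23.1 to 28.6 CPM). The log2 fold change was -0.31 (SE 0.58). A gene on the opposite strand, Skiv2l2 (Mtrex in the annotation), covers 25.8% of the Plpp1 exon bases, whose reads an unstranded library does not separate. Skiv2l2 had 77.5 CPM in cKO 2, 81.1 in control 5 and 94.6 in control 6.

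Plpp2 and Plpp3 differed more between the controls than between groups. Plpp2 (ENSMUSG00000052151, chromosome 10, 79526430 to 79533796, minus strand) had 104 reads in cKO 2, 5 in control 5 and 57 in control 6. Library cKO 2 stood highest, at 20.4 times control 5 (exact interval 8.46 to 64.1) but at only 1.35 times control 6 (0.967 to 1.90). Control 6 was at 15.1 times control 5 (6.12 to 48.4). Plpp3 (ENSMUSG00000028517, chromosome 4, 105157347 to 105232764, plus strand) had 155 reads in cKO 2, 192 in control 5 and 0 in control 6. It therefore stood between the controls, at 0.791 times control 5 (0.636 to 0.983) and at least 38.2-fold higher than control 6, taking 3 reads as the floor in that library. The authors' deposited table gives 247-fold for this last ratio, since a count of 0 was there replaced by 0.5 reads.

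Such disagreement between controls was limited to Plpp2 and Plpp3. In these 2 of the 9 members the controls differed by more than 4-fold, while 15.5% of all tested genes did so. In the other 7 members they lay within 2-fold of each other, as did 68.3% of all tested genes. The median absolute log2 ratio of control 6 over control 5 was 0.44 over the members and 0.58 over all tested genes. Because Plpp3 marks radial glia and endothelium in the embryonic brain and is not known as a microglial gene, endothelial markers were set beside it. Of 9 such markers 7 were listed. In cKO 2, 3 were above both controls, 3 below both and 1 between, beside 38.0%, 31.1% and 30.9% of all tested genes. The summed levels of the 7 were 27.3 CPM in cKO 2, 42.3 in control 5 and 41.1 in control 6. Cldn5, a tight junction protein gene, was at 0 in control 6 and Esam, an adhesion molecule gene, in both controls. The other 5 were read in every library. Pecam1, the endothelial adhesion molecule CD31, had 3.89 CPM in cKO 2, 20.5 in control 5 and 27.3 in control 6. Kdr went the other way, with 14.3 CPM in cKO 2, 7.32 in control 5 and 6.52 in control 6. Flt1 had 0.766 CPM in cKO 2, 7.76 in control 5 and 0.296 in control 6. No separate list was read for radial glia. The 7 listed neural progenitor markers given above summed to 209.0 CPM in cKO 2, 145.6 in control 5 and 152.4 in control 6. The part of endothelial cells or radial glia in the Plpp3 counts was not tested.

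**Figure D2:**
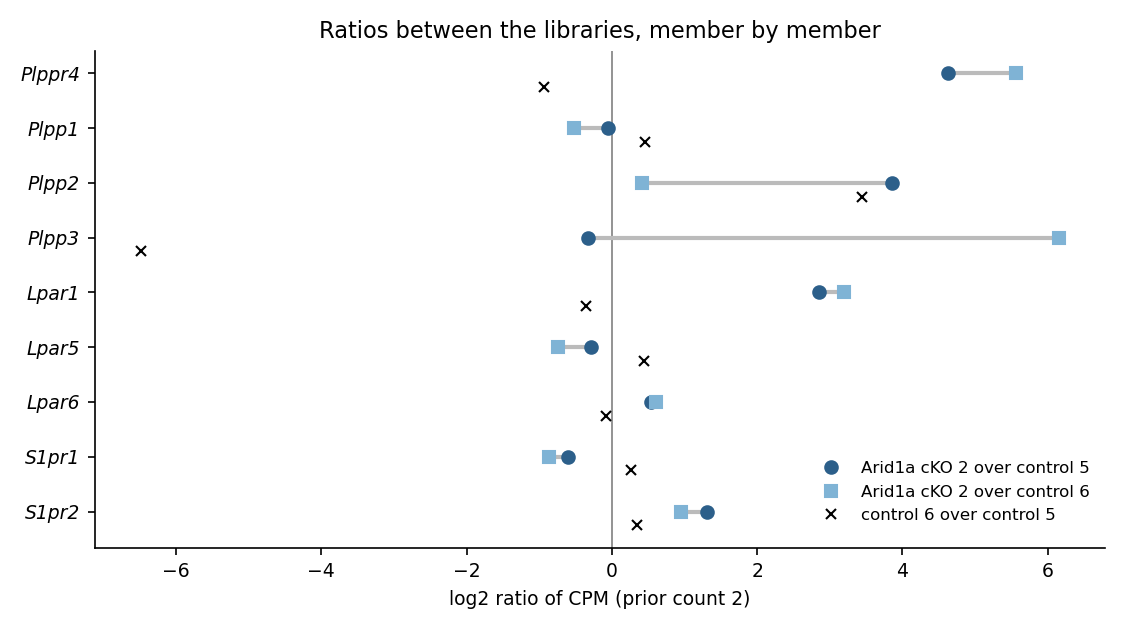
Log2 ratios of CPM (prior count 2) for each member: cKO 2 over control 5 (dark circles), over control 6 (light squares) and control 6 over control 5 (crosses). Both knockout ratios share cKO 2. They lie on the same side of 0 for 8 of the 9 members, and for Plpp3 they are -0.33 and 6.15. Of all tested genes, 38.0% were above both controls in cKO 2 and 31.1% below both.

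The other Plpp genes lay close to their control levels. Plpp5 had 434 reads in cKO 2, 344 in control 5 and 245 in control 6, with a log2 fold change of 0.35 (SE 0.56). Plpp7 had 423 in cKO 2, 494 in control 5 and 285 in control 6, and Plpp6 had 42 in cKO 2, 54 in control 5 and 24 in control 6. Neither Plpp5, Plpp6 nor Plpp7 passed the test.

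Among the LPA receptors, Lpar6 had the highest level per kilobase of exon in every library, at 28.8 CPM per kilobase in cKO 2, 19.9 in control 5 and 18.8 in control 6. Lpar5 came next, at 6.43 in cKO 2, 7.89 in control 5 and 10.8 in control 6. Lpar6 (ENSMUSG00000033446, chromosome 14, 73237895 to 73243294, plus strand) had 2838 reads in cKO 2, 1921 in control 5 and 1371 in control 6, which is 155.4 CPM in cKO 2, 107.3 in control 5 and 101.6 in control 6. Library cKO 2 was higher than both controls, at 1.45 times control 5 (exact interval 1.37 to 1.53) and 1.53 times control 6 (1.43 to 1.63), and the controls differed little, control 6 being at 0.947 times control 5. The log2 fold change was 0.57 (SE 0.37). The gene lies inside Rb1, the retinoblastoma gene on the opposite strand, whose exons cover 7.56% of its exon bases. Rb1 went the other way, with 30.2 CPM in cKO 2, 51.3 in control 5 and 37.1 in control 6.

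Lpar5 and Lpar1 differed in level and direction. Lpar5 (ENSMUSG00000067714, chromosome 6, 125067920 to 125082472, plus strand), a receptor known from microglia and nociceptive pathways, had 178 reads in cKO 2, 214 in control 5 and 220 in control 6. At 9.74 CPM in cKO 2, 11.95 in control 5 and 16.3 in control 6 cKO 2 was the lowest, with a log2 fold change of -0.54 (SE 0.70). Lpar1 (ENSMUSG00000038668, chromosome 4, 58435255 to 58553898, minus strand), the classical LPA receptor of the embryonic ventricular zone, had 43 reads in cKO 2 against 4 in control 5 and 2 in control 6. That was 10.5 times control 5 (exact interval 3.83 to 40.4) and 15.9 times control 6 (4.14 to 135), with a log2 fold change of 3.60 and a large SE of 2.45. Of the other LPA receptors, Lpar2 had 13 reads in cKO 2, 19 in control 5 and 14 in control 6, Lpar4 had 25 in cKO 2, 0 in control 5 and 13 in control 6, and neither passed the test.

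S1pr1 and S1pr2 lay on opposite sides of the controls. S1pr1 (ENSMUSG00000045092, chromosome 3, 115710433 to 115715072, minus strand), the receptor that guides lymphocyte exit from tissues and vessel maturation, had 4127 reads in cKO 2, 6128 in control 5 and 5528 in control 6. The levels were 225.9 CPM in cKO 2, 342.3 in control 5 and 409.6 in control 6, so that cKO 2 was the lowest, at 0.660 times control 5 (exact interval 0.634 to 0.687) and 0.552 times control 6 (0.530 to 0.574). The log2 fold change was -0.73 (SE 0.36). S1pr1 is also an endothelial gene. The summed endothelial markers were lower in cKO 2 too, while single markers went both ways, as given above. Pecam1 alone made up 3.89 CPM of that sum in cKO 2, 20.5 in control 5 and 27.3 in control 6. Kdr had 14.3 CPM in cKO 2, 7.32 in control 5 and 6.52 in control 6. The sum therefore gives no common direction of the endothelial markers. The part of endothelial cells in the S1pr1 level was not tested.

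S1pr2 (ENSMUSG00000043895, chromosome 9, 20962361 to 20976781, minus strand), an S1P receptor best known from inner ear and blood vessels, was higher in cKO 2. It had 210 reads there, 82 in control 5 and 79 in control 6, which is 11.5 CPM in cKO 2, 4.58 in control 5 and 5.85 in control 6. The ratio was 2.51 over control 5 (exact interval 1.94 to 3.28) and 1.96 over control 6 (1.51 to 2.58), and the log2 fold change was 1.14 (SE 0.84). In cKO 2 S1pr1 still stood far above S1pr2 per kilobase of exon, at 74.2 CPM per kilobase for S1pr1 and 1.44 for S1pr2.

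The remaining S1P receptors were scarce. S1pr4, a receptor of blood cells, had 103 reads in cKO 2, 0 in control 5 and 13 in control 6, at least 33.6-fold higher than control 5 at a floor of 3 reads (log2 fold change 3.55, SE 2.15, adjusted p = 0.956 in edgeR's quasi-likelihood test). Over control 6 the ratio of S1pr4 was 5.85 (exact interval 3.28 to 11.4). Among all tested genes, 1750 had 0 reads in control 5 and 508 in control 6. S1pr5 had 20 reads in cKO 2, 0 in control 5 and 10 in control 6. S1pr3 had 9 reads in cKO 2 and 0 in each control, too few to be tested.

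Ordered by the mean control level per kilobase of exon, the members ran from S1pr1 through Lpar6, Plpp1, Lpar5, Plpp3, Plpp2, Plppr4 and S1pr2 to Lpar1. Mean control levels were 123 ± 15.6 CPM per kilobase for S1pr1, 19.3 ± 0.747 for Lpar6, 12.7 ± 2.84 for Plpp1 and 9.33 ± 2.03 for Lpar5 (SD, n = 2). Further down they were 1.70 ± 2.40 for Plpp3, 1.36 ± 1.69 for Plpp2, 0.913 ± 0.411 for Plppr4, 0.655 ± 0.113 for S1pr2 and 0.0433 ± 0.0124 for Lpar1. The first 4 places were the same in both controls, also for Plpp1 and Lpar5, whose means lie closest: Plpp1 had 10.7 CPM per kilobase in control 5 and 14.7 in control 6, and Lpar5 had 7.89 in control 5 and 10.8 in control 6. The order of Plpp3, Plpp2, Plppr4 and S1pr2 was not the same in both controls, and their means lie within their spread of each other. In cKO 2 Plppr4 took place 2, after S1pr1 and just ahead of Lpar6 at 28.8 CPM per kilobase.

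**Figure D3:**
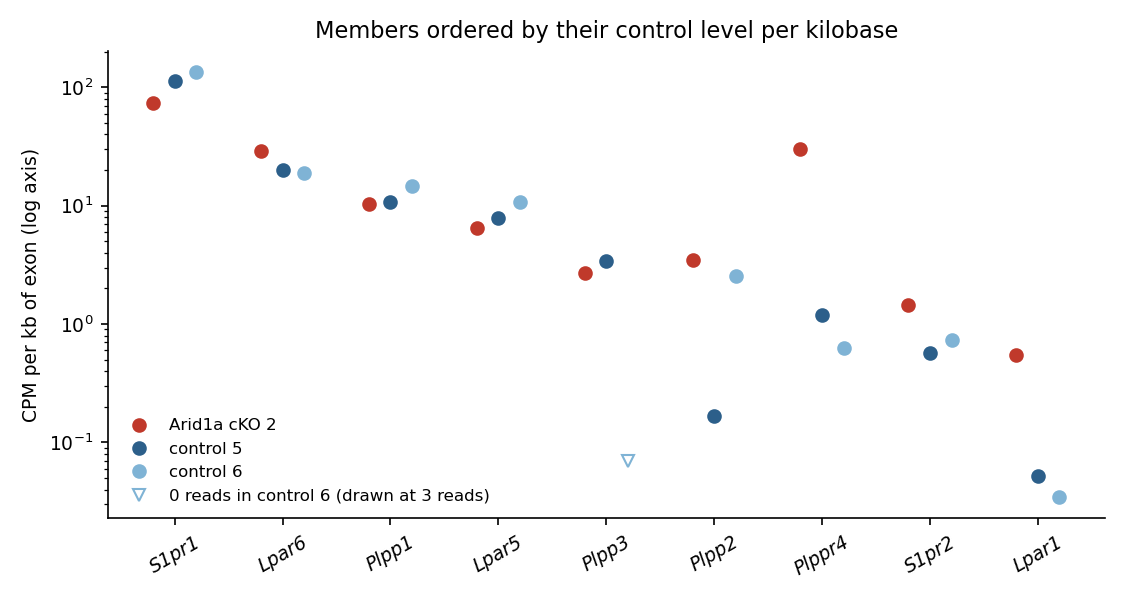
CPM per kilobase of exon (log axis) for the members, ordered from left to right by their mean control level; red is cKO 2, dark blue control 5 and light blue control 6, and the open triangle is drawn at 3 reads for a library with 0 reads. The control means lie between 123 for S1pr1 and 0.0433 for Lpar1, and Plppr4 is at 30.2 in cKO 2.

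Counted over the members, cKO 2 was above both controls in 5 of 9 (Plppr4, Plpp2, Lpar1, Lpar6 and S1pr2), where 38.0% of all tested genes were. It was below both in 3 (Plpp1, Lpar5 and S1pr1), where 31.1% were, and between the controls in 1 (Plpp3), where 30.9% were. The median log2 fold change was 0.66 over the members and 0.05 over all tested genes. All 9 passed the low-count filter.

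Beyond the members, 94 further genes of LPA and S1P metabolism and signalling were read in 10 lists, of which 82 were in both tables and 80 were tested. None passed edgeR's quasi-likelihood test in either direction, where 0.0394% of all tested genes did (0.0131% higher and 0.0263% lower), and 7 had an unadjusted p under 0.05, 3 higher and 4 lower, where 6.00% of all tested genes had one. Library cKO 2 was above both controls in 29 of the 80, below both in 26 and between them in 25. Over all tested genes these shares were 38.0%, 31.1% and 30.9%. The median log2 fold change of the 80 was 0.03. The DESeq2 Wald test gave an adjusted p to 68 of the 80 and called 2 of these, the lower Lpcat2 and Acer3, where 1.84% of all genes with an adjusted p were called. In edgeR, 0.457% of genes were called among those at 5 CPM or more in 2 libraries and 0.0634% with genes of either table.

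Genes that make, break down or move S1P gave values in both directions. Sgpl1, the lyase that ends S1P signalling by cleaving it, had 4136 reads in cKO 2, 5643 in control 5 and 5054 in control 6 (log2 fold change -0.61, SE 0.36). Sphk2, the nuclear and mitochondrial sphingosine kinase, had 1820 reads in cKO 2, 342 in control 5 and 1115 in control 6, so that most of its log2 fold change of 0.97 (SE 0.72) came from control 5. Dbp and Rpl18 on the opposite strand share 12.96% and 8.97% of its exon bases. Spns2, an S1P exporter, had 1 read in cKO 2, 56 in control 5 and 33 in control 6. Its ratio was 0.0175 over control 5 (exact interval 0.000435 to 0.102) and 0.0224 over control 6 (0.000550 to 0.134). Sgpp2, an S1P phosphatase named after its values were seen, had 0 reads in cKO 2, 30 in control 5 and 25 in control 6, which puts cKO 2 at least 10.7-fold lower than controls on average, with a floor of 3 reads. Neither Spns2 nor Sgpp2 passed edgeR's test (adjusted p = 0.852 and 0.863), and both are low in every library. The other phosphatase, Sgpp1, had 208 in cKO 2, 190 in control 5 and 103 in control 6.

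None of the 17 tested enzymes of sphingosine and ceramide passed edgeR's test. The 4 with the highest mean CPM are given first. Cers2, a ceramide synthase for very long acyl chains, had 469.4 CPM in cKO 2 against 490.0 ± 113 CPM in controls (SD, n = 2), and the acid ceramidase Asah1 had 384.1 in cKO 2 against 458.9 ± 24.4 CPM in controls. Degs1, which makes ceramide from dihydroceramide, had 167.4 in cKO 2 against 165.0 ± 7.08 CPM in controls, and Sptlc2, a subunit of the first enzyme of sphingolipid synthesis, had 152.9 in cKO 2 against 186.9 ± 39.8 CPM in controls. Over the whole list the median log2 fold change was -0.06, with 2 above both controls and 8 below both, beside 38.0% and 31.1% of all tested genes. Acer3, an alkaline ceramidase named because DESeq2 called it, had 416 reads in cKO 2, 1591 in control 5 and 959 in control 6 (log2 fold change -1.81, SE 0.47, adjusted p = 0.417 by edgeR and 0.0306 by DESeq2).

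Of 16 tested enzymes of LPA and phosphatidic acid, 11 were highest in cKO 2 and 3 lowest, beside 38.0% and 31.1% of all tested genes, and their median log2 fold change was 0.57. None passed the test. Lpin2, a phosphatidate phosphatase of the endoplasmic reticulum, had 4494 reads in cKO 2, 1359 in control 5 and 1482 in control 6 (log2 fold change 1.41, SE 0.39, edgeR adjusted p = 0.477). Dgkz, a diacylglycerol kinase, had 4809 reads in cKO 2, 1346 in control 5 and 2110 in control 6 (1.19, SE 0.47). Pld1, a phospholipase D, had 107.0 CPM in cKO 2 against 92.6 ± 5.78 CPM in controls (SD, n = 2), while Agpat5, an acyltransferase that turns LPA into phosphatidic acid, was lower, at 38.6 CPM in cKO 2 against 72.3 ± 10.1 CPM in controls. Enpp2, which encodes autotaxin and was named after its values were seen, had 28 reads in cKO 2, 0 in control 5 and 14 in control 6.

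**Figure D4:**
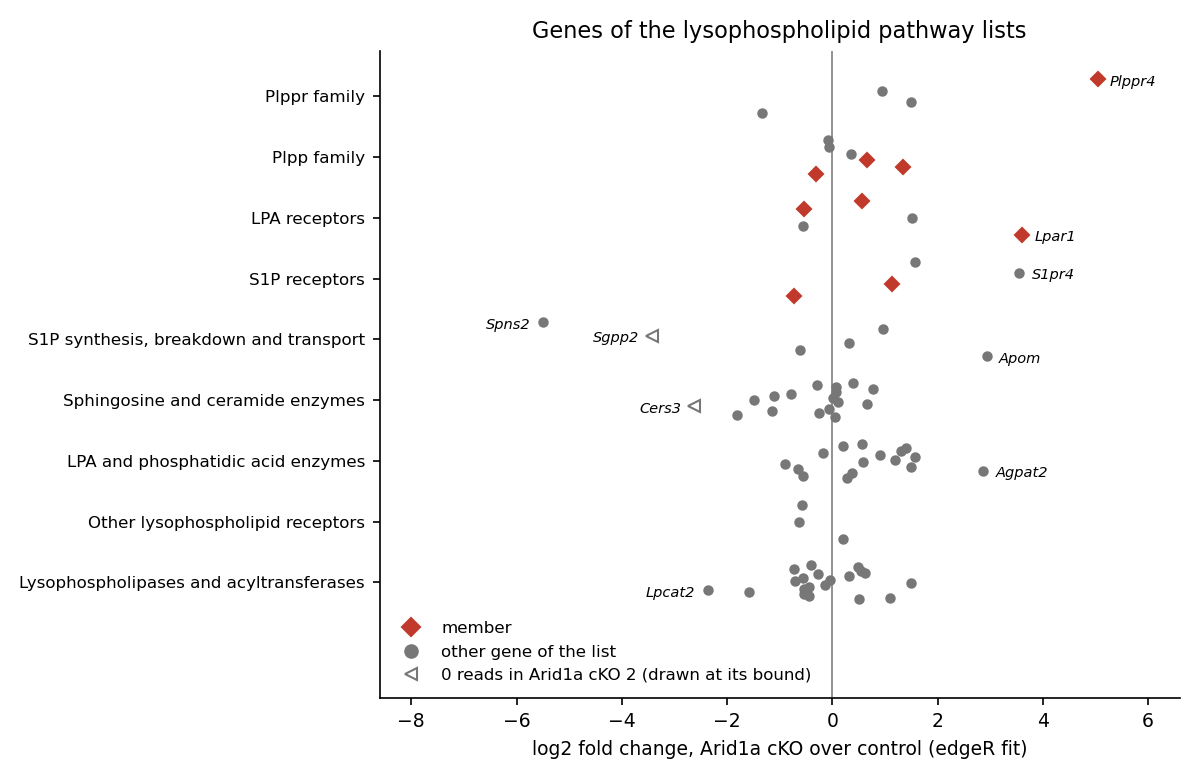
Log2 fold change (Arid1a cKO over control, edgeR fit) of each tested gene in 9 of the pathway lists, with members as red diamonds and other genes as grey circles; open triangles are genes with 0 reads in cKO 2, drawn at their bound, so that their true value lies at or to the left of it. Plppr4 at 5.04 lies farthest to the right.

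Of the lysophospholipid receptors outside the LPA and S1P families, Gpr34 and Ptafr stood above every LPA and S1P receptor per kilobase of exon, and Gpr132 and Gpr174 were scarce. Gpr34, a lysophosphatidylserine receptor typical of microglia, stood at 346.0 CPM per kilobase of exon in cKO 2 and 535.7 in controls on average, and Ptafr, the receptor for platelet-activating factor, at 275.2 in cKO 2 and 410.8 in controls. In CPM, Gpr34 had 723.1 in cKO 2 against 1120 ± 188 in controls, and Ptafr had 1001 in cKO 2 against 1494 ± 460 in controls (SD, n = 2). Both were lowest in cKO 2, with log2 fold changes of -0.63 (SE 0.35) and -0.58 (SE 0.38), and neither passed the test. Gpr132 had 66 reads in cKO 2, 93 in control 5 and 14 in control 6, and Gpr174 had 8 in cKO 2 and 0 in each control.

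Among enzymes that cut or rebuild lysophospholipids, Lpcat2 had the lowest unadjusted p. Lpcat2 (ENSMUSG00000033192), the acyltransferase and acetyltransferase that makes platelet-activating factor in inflammatory cells, had 3827 reads in cKO 2, 16253 in control 5 and 16930 in control 6. The levels were 209.5 CPM in cKO 2 against a control mean of 1081 ± 245 CPM (SD, n = 2), and the log2 fold change was -2.37 (SE 0.40). This did not pass edgeR's test over all genes (adjusted p = 0.130) and passed the DESeq2 Wald test (adjusted p = 3.74e-08). It was -2.11 over control 5 and -2.58 over control 6, so the difference was of like size with either control. Abhd12, the lysophosphatidylserine lipase, had 677.4 CPM in cKO 2 against 474.6 ± 81.7 CPM in controls, Pnpla7 had 255.5 in cKO 2 against 339.9 ± 134 CPM in controls and Pla2g15, a lysosomal phospholipase, had 239.7 in cKO 2 against 291.2 ± 90.0 CPM in controls (SD, n = 2). Over the 20 tested genes of this list the median log2 fold change was -0.35. Of the 20, 4 were above both controls and 7 below both, beside 38.0% and 31.1% of all tested genes.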

How the data were processed

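Sorted microglia RNA was sequenced with a TruSeq RNA kit, per the labels' protocols, treated here as unstranded. The submitters' processing notes list HTSeq 0.6.0, Bowtie2 2.2.3, TopHat2 2.0.12 and the build mm9. Of the deposited gene positions, 89.9% equal those of GENCODE M21 on GRCm38, so that build is used. The authors deposited, per gene, raw read counts, CPM in which a count of 0 stands as 0.5 reads, a fold ratio, its log2 value and p-values whose test is not given in the sources used here; these p-values were left out. The knockout counts were the same in both tables. Counts of 16655 shared genes were fitted with edgeR 4.0.16 in R 4.3.3 (filterByExpr, TMM, quasi-likelihood test, Benjamini-Hochberg, two-sided, threshold 0.05), leaving 15236 genes and 1 residual degree of freedom, which comes from the controls alone; cKO 2, the 1 knockout library, is taken to be as variable. The fitting was tested on simulated data. SE is the log2 fold change over the root of F. CPM are TMM-scaled; ratio intervals are exact conditional binomial. Library log2 ratios use a prior count of 2. Lengths are unions of exons. Members, lists and tests were chosen with earlier results of these data known. The text names all members, up to 4 further genes per list by mean CPM and any called, genes within 500 kb of Plppr4, the 5 nearest in pattern at 5 CPM or more (without predicted, pseudo- and sex-linked genes) and Arid1a. Further list genes, overlapping genes and single marker genes were named after their values were seen. The genes of 1 list enter the counts over all lists but are not reported here. Alternatives were other size factors, other filters, DESeq2 1.42.0, genes in either table, each control left out and another gene length.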

Additional observations from a re-analysis of the deposited data

How the results depend on the processing

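The 6 genes called by edgeR became 0 with DESeq2 size factors, 0 with upper-quartile factors and 0 with no low-count filter (895, 818 and 948 at an unadjusted p under 0.05, against 914), 44 where 2 libraries had to reach 5 CPM, 215 with the DESeq2 Wald test and 10 with genes in either table. Of pathway genes outside the members, 0 were called, but 1, Lpcat2, in the 5 CPM setting (adjusted p = 0.0479, where 0.457% of genes were called) and 2 by DESeq2. The cause of these differences was not tested. The log2 fold changes of the members moved by at most 0.05 under other factors, filters or tools; 2 members fell out of the 5 CPM setting. With 1 control left out no test could be made, and the value is the log2 ratio of 2 libraries with a prior count of 2, which pulls genes of few reads such as Lpar1 towards 0, so it differs from the fitted value in more than the control. On that scale Plppr4 stood at 5.56 without control 5 and 4.63 without control 6, Plpp2 at 0.42 and 3.86, Lpar1 at 3.20 and 2.85, and Plpp3 at 6.15 and -0.33, the only change of sign against the fit among the 9 members. The count of members above the controls was 5 to 6 and below them 3 to 4. The order of members by length-scaled control level was the same with the longest transcript. No paired analysis was possible because the groups share no replicate numbers. With 1 knockout library, its own variation is unknown, and genes under about 50 reads rest on few counts.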
